A study of Caenorhabditis elegans with 2 samples.

Results

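The regions described here are the places in the C. elegans genome that ranked high in only 1 of 2 replicate chromatin immunoprecipitation sequencing (ChIP-seq) libraries for the GATA factor ELT-3. They were chosen by signal value in the ce11 lists. The 1000 highest regions of replicate 2 were taken, and those whose summit lay over 150 bp from every summit among the 3000 highest regions of replicate 1 were kept. This left 869 regions of the 30000 in the replicate 2 list, called replicate 2-only regions below. The other 131 of the 1000 highest had such a replicate 1 summit and are called high in both. The 15000 replicate 2 regions below its median signal, called low regions below, are the background for every share given.

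The series holds 1 group, whole L2 larvae of mixed sex, in 2 biological replicates. The animals were of strain OP75, genotype unc-119(ed3) III with the transgene wgIs75, from which ELT-3 is made with a GFP-FLAG tag at its C terminus. Chromatin was sheared by sonication, the labels give the antibody only as elt-3, and the regions of both replicates were called against 1 control alignment. No wild type, untagged or input sample was analysed here, and the sources used here give neither hours of age nor how cultures were separated. A region list holds no expression, so the stage and tissue on the labels could not be checked against marker genes. Because whole animals were used, signal from a few cells and weak signal from many cells cannot be told apart. The comparisons that remain are between ranks within replicate 2, between the replicates' lists, and with the genome annotation.

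GATA factors are zinc-finger proteins that bind short DNA elements with the core GATA. ELT-3 is expressed in the hypodermis, the epithelium that surrounds the worm and secretes its cuticle, a matrix of collagens that is replaced at each moult. Hypodermal genes include the cuticle collagens, the hedgehog-related and patched-related families, which in C. elegans have roles in moulting, and small antimicrobial peptides made by the epidermis.

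The sequences below show what the highest replicate 2-only regions look like around their summits. Each is the plus strand of the summit base with 100 bp on both sides, from the RefSeq WBcel235 (ce11) genome, and capitals mark TGATAA or its complement TTATCA, the GATA element counted in what follows. The first 5 were chosen to show regions with 1, 2, 3 or 4 elements at different distances from the summit. The last 2 are regions of similar signal that hold none.
The first window lies in an intron of elt-3 itself, at chrX:13937387-13937587, and the closest of its 3 elements is centred 42.5 bp from the summit.
elt-3: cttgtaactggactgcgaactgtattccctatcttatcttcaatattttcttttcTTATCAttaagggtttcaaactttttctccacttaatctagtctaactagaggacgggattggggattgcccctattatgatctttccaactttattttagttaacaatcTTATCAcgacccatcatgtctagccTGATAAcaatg
The window upstream of bcat-1, a branched-chain amino acid aminotransferase gene, lies at chrX:12872434-12872634 and holds 2 elements, the closest at 41.5 bp.
bcat-1: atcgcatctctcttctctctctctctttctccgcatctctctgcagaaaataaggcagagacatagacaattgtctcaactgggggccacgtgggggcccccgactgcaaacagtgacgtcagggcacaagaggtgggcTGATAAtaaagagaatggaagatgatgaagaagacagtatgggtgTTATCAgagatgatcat
The window near psd-1, a phosphatidylserine decarboxylase gene, lies at chrIII:7272883-7273083 and holds 2 elements, the closest at 65.5 bp.
psd-1: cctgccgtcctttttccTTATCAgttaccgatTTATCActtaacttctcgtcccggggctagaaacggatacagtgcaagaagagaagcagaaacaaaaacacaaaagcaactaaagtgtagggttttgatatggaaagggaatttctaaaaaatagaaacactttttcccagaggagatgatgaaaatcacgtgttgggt
The window near sdz-19 lies at chrX:12500941-12501141 and holds 4 elements, the closest at 1.5 bp.
sdz-19: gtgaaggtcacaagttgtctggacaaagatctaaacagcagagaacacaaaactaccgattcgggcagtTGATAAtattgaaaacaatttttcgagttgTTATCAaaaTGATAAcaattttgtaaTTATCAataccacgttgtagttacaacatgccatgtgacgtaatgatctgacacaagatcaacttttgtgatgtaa
The window in an exon of clec-7, which encodes a C-type lectin domain protein, lies at chrV:7329155-7329355 and holds 1 element at 5.5 bp.
clec-7: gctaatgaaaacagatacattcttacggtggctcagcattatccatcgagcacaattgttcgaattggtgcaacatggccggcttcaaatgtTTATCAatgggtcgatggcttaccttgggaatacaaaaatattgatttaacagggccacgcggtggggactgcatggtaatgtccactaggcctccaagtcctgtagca
The window downstream of the cuticle collagen gene col-17 lies at chrII:4866195-4866395 and holds no TGATAA.
col-17: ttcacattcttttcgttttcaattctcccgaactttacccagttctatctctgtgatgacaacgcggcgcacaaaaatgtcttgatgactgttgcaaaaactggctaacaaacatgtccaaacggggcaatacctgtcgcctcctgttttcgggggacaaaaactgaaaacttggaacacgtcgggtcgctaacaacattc
The window nearest to C30E1.4 lies at chrX:16930929-16931129 and holds no TGATAA.
C30E1.4: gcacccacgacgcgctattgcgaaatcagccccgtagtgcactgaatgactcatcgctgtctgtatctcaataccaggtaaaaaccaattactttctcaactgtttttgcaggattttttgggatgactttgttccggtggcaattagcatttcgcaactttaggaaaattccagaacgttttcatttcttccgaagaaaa
In the psd-1 window the 2 elements lie close together, and in the sdz-19 window all 4 lie near the middle.

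Since the regions were selected on signal, their signal values are a description and carry no test. The signal is a score that the authors' peak caller gave each region against the control, on a scale that is not stated. In replicate 2, the replicate 2-only regions had signals from 17.3 to 40.7 with a median of 18.9, against 7.05 to 9.53 with a median of 8.12 in the low regions. The regions high in both ran from 17.3 to 62.4 with a median of 19.8. Most replicate 2-only regions therefore lay close to the threshold, and 77 of the 869 came from ranks 1 to 100. By the authors' q-value, 4 of the 869 were under 0.05, and over the whole replicate 2 list 15 of 30000 were, which is 0.05% of the list. The selection used the same values, so nothing is read from that count. These 4 were the regions nearest to elt-3, col-17, bcat-1 and rpl-1, and the lowest q-value in the replicate 1 list was 0.0698.

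The thresholds divided near neighbours. The last region inside was the one downstream of spp-22, at rank 1000 with a signal of 17.2645, and the first outside was the one near grd-16, one rank further down with 17.2578. On the distance rule, the region near Y37E3.1 was kept at 152 bp from a high replicate 1 summit, whereas the one near pamn-1 was left out at 139 bp. On the replicate 1 rank, the region near pqn-36 was kept although a replicate 1 region ranked 3082 lay within 150 bp, whereas the one near F53G12.4 was left out for a replicate 1 region ranked 2826.

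Being absent from the 3000 highest of replicate 1 did not mean being absent from its list. A weaker replicate 1 region lay within 150 bp of 284 of the 869 replicate 2-only summits, which is 32.7% (95% Wilson interval 29.6 to 35.9). Among the 77 from ranks 1 to 100 it was 33, or 42.9% (32.4 to 53.99). Of the 14662 low regions with no high replicate 1 summit nearby, 2649 had such a region, or 18.1% (17.5 to 18.7). The replicate 1 regions found at replicate 2-only summits had a median rank of 12754 and a median signal of 10.4. At those 14662 low regions the medians were 15239 and 9.80. Both sets leave out the 3000 highest replicate 1 regions by rule. The whole replicate 1 list, with a median of 9.85, does not, so nothing is read from that median. In the list made from both replicates pooled, 810 of the 869 had a region within 150 bp and 59 had none. Their median pooled rank was 2159, and 234 were among the 1000 highest pooled regions. The pooled list contains replicate 2's own reads, so these ranks do not come from a separate sample. No such counts are given for the low regions or the whole replicate 2 list, so nothing is read from these.

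The authors' list of reproducible regions, filtered by irreproducible discovery rate (IDR), held 33. Of these, 5 coincided with the 869 replicate 2-only regions and 24 with the 131 regions high in both. The sets were split by rank in replicate 1, so this contrast is partly built into the selection and nothing is read from it. The 5 replicate 2-only regions lay nearest to elt-3, col-17, egl-30, inx-13 and lrp-2. The elt-3 region had a signal of 40.7 in replicate 2 and 10.9 in replicate 1, and 54.3 in the pooled list. At col-17 the values were 39.0 in replicate 2, 10.8 in replicate 1 and 48.5 pooled. Both thus ranked among the highest in replicate 2, at 5 and 7, and far lower in replicate 1, at 10877 and 11080. At egl-30, which encodes a Gq alpha subunit, the signal was 26.7 in replicate 2, 10.4 in replicate 1 and 47.6 pooled. The inx-13 region, near an innexin gene, had 25.5 in replicate 2, 10.97 in replicate 1 and 46.99 pooled. At lrp-2, a gene of the lipoprotein receptor family, the signal was 21.5 in replicate 2 and 50.3 in the pooled list, with no replicate 1 region within 150 bp.

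**Figure D1:**
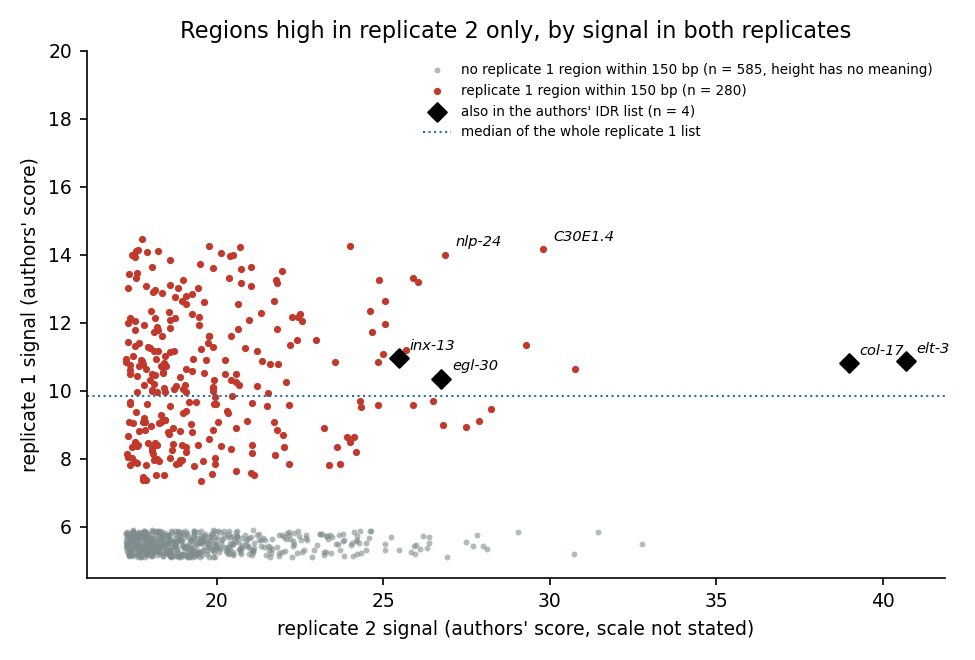
Signal of the 869 replicate 2-only regions in replicate 2 (horizontal axis) and in replicate 1 (vertical axis), both as the authors' score with no stated scale. Red points and black diamonds are the 284 regions with a replicate 1 region within 150 bp, spread on both sides of the replicate 1 list's median of 9.85, and the grey band at the bottom holds the 585 without one.

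The 25 highest replicate 2-only regions were a mixture. A replicate 1 region lay within 150 bp of 12 of them and none within 150 bp of the other 13. Of the 25, 12 held TGATAA within 100 bp of the summit, 15 were intergenic and 4 lay in coding exons. The region upstream of bcat-1, at rank 12, had a signal of 32.8 with none in replicate 1, and lay 4946 bp from the start of the gene. Near rpl-1, which encodes a ribosomal protein of the large subunit, the signal was 31.5 at rank 15, again with none in replicate 1, and the summit lay 177 bp upstream of the start. The region upstream of cpz-1, a cathepsin Z-like cysteine protease with a role in moulting, had 30.7 in replicate 2 and none in replicate 1. These 3 were among the highest of replicate 2 without any counterpart in the other replicate.

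Other high regions had a weak counterpart. Near C30E1.4 the signal was 29.8 in replicate 2 and 14.2 in replicate 1, where it ranked 3444. At nlp-24, which belongs to a family of epidermal antimicrobial peptide genes, it was 26.9 in replicate 2 and 14 in replicate 1, at rank 3655. These 2 missed the replicate 1 threshold by little. The region at the cuticle collagen gene col-47 had 29.3 in replicate 2 and 11.4 in replicate 1. Near ain-1, which encodes a GW182-type partner of microRNA Argonautes, the values were 28.2 in replicate 2 and 9.46 in replicate 1. In the 5′ UTR of din-1, which encodes a corepressor of the nuclear receptor DAF-12, they were 27.5 in replicate 2 and 8.94 in replicate 1. The region near psd-1 had 26.9 in replicate 2 and the one in clec-7 26.4, both with none in replicate 1.

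The GATA element TGATAA was concentrated in the highest ranks. It was searched on both strands within 100 bp of the summit, and 29 of the 77 replicate 2-only regions from ranks 1 to 100 held it, or 37.7% (27.7 to 48.8). Among the low regions 2657 of 15000 held it, or 17.7% (17.1 to 18.3), and over the whole replicate 2 list 17.6% did. The difference for ranks 1 to 100 was 19.9 percentage points (95% Newcombe interval 9.94 to 31.1). Past rank 100 the share was nearer to the background. It was 20.2% of 124 regions over rank 100 and up to 250, 21.2% of the next 222 up to rank 500, 15.4% of 228 up to 750 and 19.3% of 218 up to 1000. Regions over rank 100 together held it in 18.8% (149 of 792), which exceeded the low regions by 1.10 points (-1.54 to 4.03), and by 3.19 points (0.62 to 6.06) when the low regions were weighted to the same GC content. The highest 77 exceeded those 792 by 18.8 points (8.45 to 30.3). Over all 869 regions the share was 20.5% (178 regions), 2.77 points above the low regions (0.15 to 5.64), or 4.83 points (2.28 to 7.64) with the GC weighting. Under 7 of 18 alternative settings that ranked replicate 2, the interval over all regions included 0, whereas for ranks 1 to 100 it did so under none of 16. These intervals cover the counting of regions alone, since neighbouring regions and regions of 1 library are not replicates, and they were not adjusted for the 37 features compared.

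Other spellings of the element and repeated elements were likewise more frequent at ranks 1 to 100 than in the low regions. With A or T before GATAA or GATAG, 4 sequences in all, 58.4% of the 77 highest regions held at least 1, against 36.1% of the low regions and 35.8% of the whole list. With C allowed in that place too, 6 sequences in all, it was 61.0% of the 77, against 43.4% of the low regions and 43.1% of the whole list. Over all 869 regions the 4 sequences were present in 37.2%, against 36.1% of the low regions, and the 6 in 44.3%, against 43.4%. Over rank 100 the 4 sequences were present in 35.1%, which differed from the low regions by -0.96 points (-4.29 to 2.51). The 6 were present there in 42.7%, a difference of -0.77 points (-4.26 to 2.79). Past rank 100 the wider sets were thus slightly less frequent than in the low regions, with intervals that included 0. Each wider set contains TGATAA, so the counts overlap. Regions with 2 or more TGATAA numbered 13 of the 77 (16.9%), against 364 of the 15000 low regions (2.43%). Over rank 100 they numbered 30 of 792 (3.79%), which exceeded the low regions by 1.36 points (0.21 to 2.95). Base composition differed between the sets, with a median GC content within 100 bp of the summit of 41.3% in the 77 and 37.3% in the low regions. When the low regions were weighted to the GC content of the 77, their TGATAA share was 15.9% and the difference 21.8 points (11.8 to 32.9). The intervals with GC weighting treat the weighted background share as fixed.

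**Figure D2:**
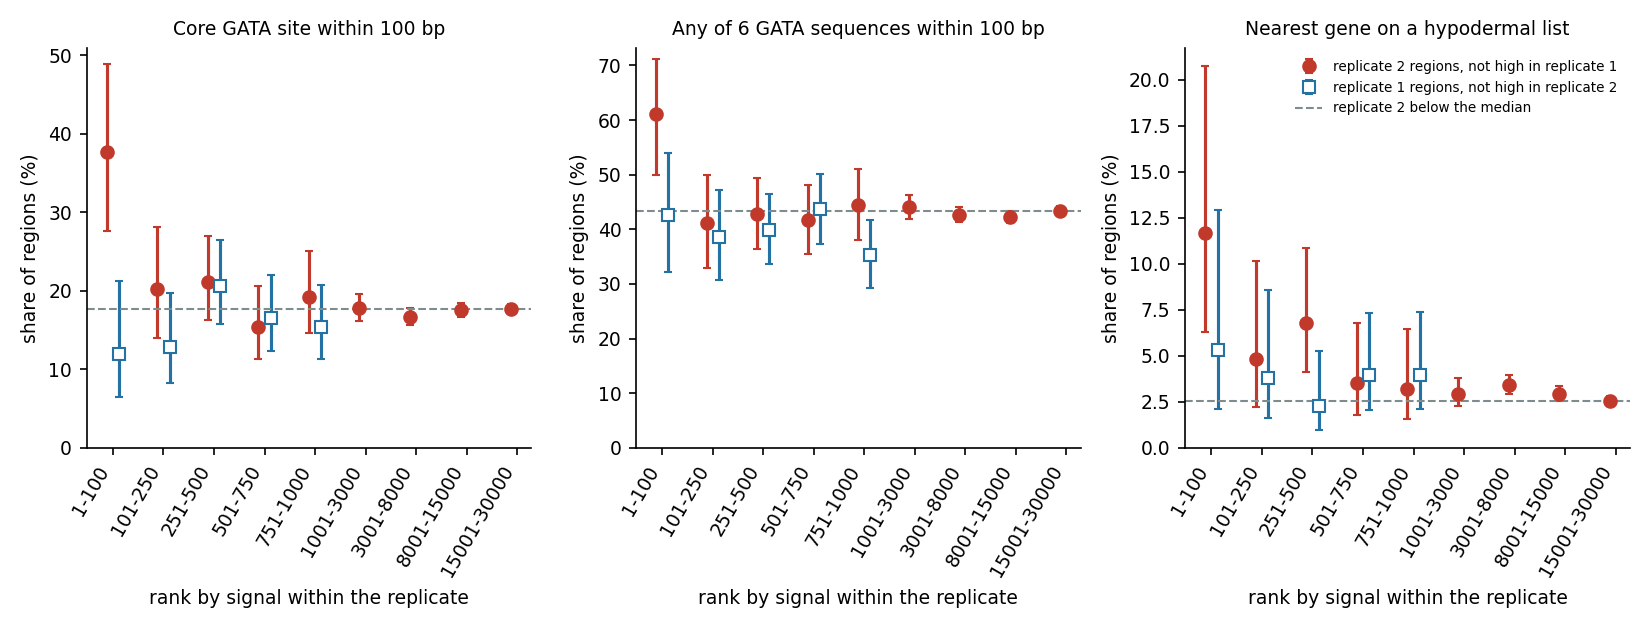
Share of regions with a core GATA site (TGATAA) within 100 bp, with any of 6 GATA sequences, and with a nearest gene on a hypodermal list, by rank of signal within the replicate, with 95% Wilson intervals. Red points are replicate 2 regions and blue squares replicate 1 regions that were not high in the other replicate, and the dashed line is the low replicate 2 regions. In replicate 2 the core site reached 37.7% at ranks 1 to 100, against 12% at the same ranks of replicate 1.

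The elements lay near the summits of the highest regions. Within 50 bp of the summit there were 33.8 elements per 100 regions at ranks 1 to 100, 13.01 over rank 100 and 10.4 in the low regions. In the bands 200 to 250 bp away on both sides there were 15.6, 11.99 and 10.2. The density at ranks 1 to 100 was thus higher beside the summit than further out, whereas the low regions were level across the window. With 26 and 12 elements behind the first of each set of values, the profile of the 77 regions is coarse.

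**Figure D3:**
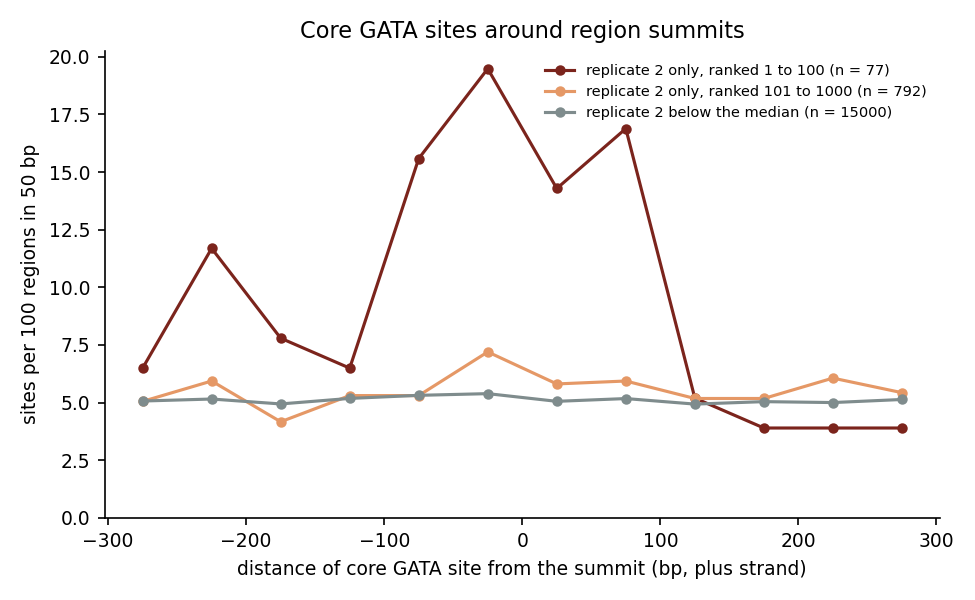
Density of the core GATA site in 50 bp bins by distance from the summit (bp, plus strand), as sites per 100 regions. The 77 replicate 2-only regions of ranks 1 to 100 peak within 100 bp of the summit, while the 15000 low regions stay near 5 in every bin.

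Replicate 1 did not show this pattern under the mirrored rule. The 1000 highest regions of replicate 1 that lay over 150 bp from the 3000 highest of replicate 2 numbered 881, of which 75 came from ranks 1 to 100. TGATAA was found in 29 of the 77 replicate 2-only regions of those ranks, against 9 of the 75 in replicate 1, or 12% (6.44 to 21.3). The replicate 2 share minus the replicate 1 share was 25.7 points (12.04 to 38.1). Over all 881 the share was 16.3%, against 16.98% in replicate 1's own low regions, a difference of -0.63 points (-3.01 to 2.02). The regions high in both, over all 1000 ranks, held it in 17.6% (23 of 131), which differed from the low regions by -0.16 points (-5.75 to 7.28). They were not counted apart at ranks 1 to 100. With regions high in both kept in, the difference at ranks 1 to 100 of replicate 2 was 20.3 points (11.4 to 30.1). The excess at those ranks is thus not shown to be particular to replicate 2-only regions. Whether the libraries differ in quality or depth was not tested, because no read totals were given.

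Replicate 2-only regions with a weak replicate 1 counterpart held the element more often than those without. The share was 25% (71 of 284; 20.3 to 30.3) with a counterpart and 18.3% (107 of 585; 15.4 to 21.6) without, a difference of 6.71 points (0.96 to 12.8). At ranks 1 to 100 it was 42.4% (14 of 33; 27.2 to 59.2) with and 34.1% (15 of 44; 21.9 to 48.9) without, a difference of 8.33 points (-12.9 to 29.1). At ranks 1 to 100 the regions without a counterpart exceeded the low regions by 16.4 points (4.15 to 31.2). Over all ranks those without a counterpart exceeded them by 0.58 points (-2.41 to 3.97).

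The element followed where in a gene a region lay. In intergenic replicate 2-only regions it was present in 27.4% (71 of 259), against 18.2% of intergenic low regions, 9.24 points more (4.04 to 15.1). In introns it was present in 25.2% (55 of 218), against 16.4%, 8.80 points more (3.39 to 15.05). In coding exons it was present in 12.5% (43 of 345), against 17.6%, a difference of -5.15 points (-8.42 to -1.11). Over rank 100 the intergenic share was 25.1% (56 of 223), 6.94 points above the low regions (1.58 to 13.1), and the intron share 23.2% (47 of 203), 6.72 points above (1.34 to 13.1). The coding-exon share there was 11.9% (39 of 327), a difference of -5.69 points (-8.96 to -1.60). Without GC weighting, coding-exon regions at these ranks thus lay below the background, and intergenic and intron ones above it. At ranks 1 to 100 the element was present in 4 of 18 coding-exon regions, or 22.2%, 4.60 points above the low regions (-8.66 to 27.6). The median GC content was 42.8% in coding-exon replicate 2-only regions and 40.3% in coding-exon low regions. With the low regions weighted to GC content the coding-exon difference was -3.09 points. In the replicate 1-only regions the shares were 16.1% in intergenic sequence, 15.6% in introns and 16.8% in coding exons, with no such split.

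Coding exons were nevertheless the most frequent place. The summit lay in a coding exon in 345 of the 869 replicate 2-only regions, or 39.7%, against 32.8% of the low regions, 6.89 points more (3.61 to 10.3). Introns held 25.1%, against 30.7% of the low regions (difference -5.63 points, -8.50 to -2.56), and intergenic sequence held 29.8%, against 31.5% (difference -1.67 points, -4.71 to 1.54). Another 19 summits lay in 5′ UTRs and 28 in 3′ UTRs. The ranks differed within the set. At ranks 1 to 100, 46.8% of regions were intergenic and 23.4% in coding exons, whereas over rank 100, 28.2% were intergenic and 41.3% in coding exons. The replicate 1-only regions resembled the lower ranks, with 43.2% in coding exons and 24.7% intergenic.

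The share in promoters was close to the background. The window from 1000 bp upstream to 200 bp downstream of a protein-coding start held 234 of the 869 summits, or 26.9%, against 25.9% of the low regions (difference 1.03 points, -1.90 to 4.15). In the regions high in both it was 17.6% (23 of 131), which the replicate 2-only share exceeded by 9.37 points (1.43 to 15.7). The median distance to the nearest start was 1237 bp, against 1239 bp in the low regions. For 70 summits, or 8.06%, the start lay over 5000 bp away, against 7.09% of the low regions. Repeats were rarer, since at least 50% of the sequence was soft-masked in 3.91% of the replicate 2-only regions, against 13.9% of the low regions (difference -10.03 points, -11.3 to -8.43). The other high sets showed the same. The share was 4.58% in the regions high in both, and 5.22% in the replicate 1-only regions against 15.4% of replicate 1's own low regions.

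**Figure D4:**
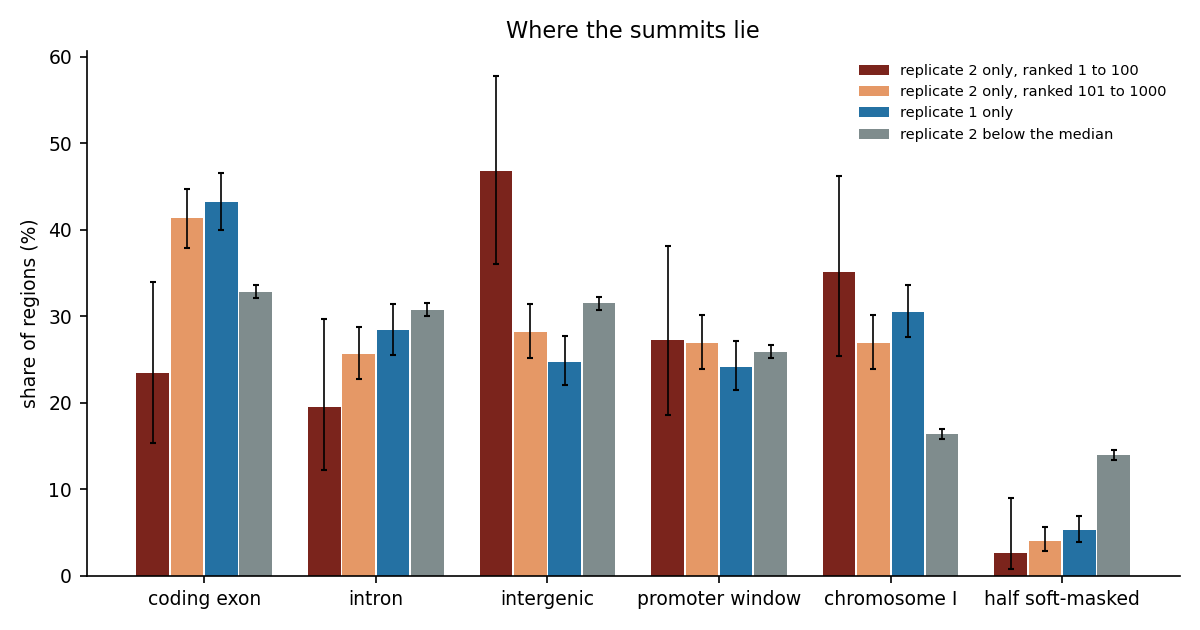
Share of summits in coding exons, introns, intergenic sequence, promoter windows and on chromosome I, and share of regions at least 50% soft-masked, with 95% Wilson intervals as error bars. Replicate 2-only regions of ranks 1 to 100 are more often intergenic (46.8%) than the low regions (31.5%), and all 3 high sets lie more often on chromosome I.

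Chromosome I held more of the replicate 2-only regions than its share of the background. It carried 240 of the 869, or 27.6% (24.7 to 30.7), against 16.4% of the low regions, 11.2 points more (8.31 to 14.4). The first 5000000 bp alone held 137, or 15.8%, against 6.09% of the low regions. The densest bin of the genome, from 3500001 to 4000000 on chromosome I, held 25. Chromosome V held fewer, at 14.2% against 20.3% of the low regions, and the X chromosome held 18.9% against 18.5% (difference 0.38 points, -2.16 to 3.18). The same excess was present in the replicate 1-only regions, 30.5% of which lay on chromosome I and 18.2% in its first 5000000 bp, against 15.9% and 6.2% of replicate 1's own low regions, and in the regions high in both, with 38.2% and 28.2%. The excess was thus present in the high regions of both libraries, and no input was analysed here to set beside it.

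GATA elements were less frequent on that chromosome. TGATAA was present in 14.6% of the 240 replicate 2-only regions on chromosome I (10.7 to 19.6) and in 22.7% of the 629 elsewhere (19.6 to 26.2), a difference of -8.15 points (-13.4 to -2.25), against 16.1% and 18.03% of the low regions in the same places. At ranks 1 to 100 it was present in 7 of 27 regions on chromosome I and in 22 of 50 elsewhere. Without chromosome I, the difference between all replicate 2-only regions and the low regions was 4.70 points (1.52 to 8.20), and for ranks 1 to 100 it was 25.97 points (13.1 to 39.7).

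The nearest genes included more hypodermal genes than the background. The 869 regions had 802 different nearest genes by protein-coding start. For 45 regions, or 5.18% (3.89 to 6.86), the nearest start belonged to 1 of 5 hypodermal lists with 355 annotated genes, against 384 of the 15000 low regions, or 2.56% (2.32 to 2.83). The difference was 2.62 points (1.31 to 4.32). The share was 11.7% (9 of 77; 6.27 to 20.7) at ranks 1 to 100, 4.84% from there to rank 250, 6.76% up to 500, 3.51% up to 750 and 3.21% up to 1000. In the regions high in both it was 9.92% (13 of 131). In the replicate 1-only regions it was 3.63% (32 of 881), 1.17 points above replicate 1's own low regions (0.09 to 2.64). The replicate 2-only share minus the replicate 1-only share was 1.55 points (-0.39 to 3.53), and 6.35 points (-2.97 to 15.97) at ranks 1 to 100. Of the 45 regions, 10 held TGATAA and 9 lay in a promoter window, and their median distance to the gene's start was 1142 bp. Nearness to a start does not show which gene a region acts on.

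A weak replicate 1 counterpart was more common beside these genes. Of the 284 regions with a counterpart 23 had a hypodermal-list gene nearest, or 8.10% (5.46 to 11.9), against 22 of the 585 without, or 3.76% (2.496 to 5.63), a difference of 4.34 points (1.10 to 8.30). The regions without a counterpart exceeded the low regions by 1.20 points (-0.09 to 3.08). At ranks 1 to 100 the counts were 8 of 33 with a counterpart and 1 of 44 without. The region without one was near grl-16, a ground-like hedgehog-related gene, with a signal of 24.6.

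Cuticle collagens were the largest of these groups, with 16 regions at 14 genes, or 1.84%, against 0.773% of the low regions (difference 1.07 points, 0.35 to 2.20). The region 1281 bp downstream of the col-17 start was the highest, and a second col-17 region, at rank 629 with a signal of 18.4, lay 1064 bp from that start. The col-47 region had 29.3, the col-90 region 24.3 and the col-111 region 23.02. The col-90 region had a replicate 1 signal of 9.52, and col-111 had none. Of the 16, 2 held TGATAA and 4 lay in a promoter window. Lower-ranked ones included 2 regions at rol-8, whose mutations make worms roll, and 1 at col-19, a collagen of the adult cuticle, with 19.1.

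Hedgehog-related and patched-related genes followed, with 13 regions at 12 genes, or 1.496%, against 0.56% (difference 0.94 points, 0.30 to 1.99). The highest were at ptr-11, a patched-related gene, with 25.9 in replicate 2 and 9.59 in replicate 1, at grl-16, and at ptc-3, a patched homologue, with 23.9 in replicate 2 and 8.65 in replicate 1. Further down, the region upstream of qua-1, the single quahog gene, had 20.3 and 1 TGATAA, and the one upstream of wrt-6, a warthog gene, had 19.4 and 1 TGATAA. Of the 13, 3 held the element.

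Epidermal antimicrobial peptide genes had 4 regions at 3 genes, or 0.460%, against 11 of the 15000 low regions, 0.0733% (difference 0.39 points, 0.10 to 1.10). The nlp-24 region, 1421 bp upstream of the start, held 3 TGATAA and had 26.9. At nlp-31 there were 2 overlapping regions with signals of 17.8 and 17.6, and the second, 44 bp upstream of the start, held 1 TGATAA. The nlp-28 region had 18.6 and none. With so few regions, and 2 of them overlapping, the share rests on 3 places in the genome.

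Hypodermal and seam regulators had 5 regions at 5 genes, or 0.575%, against 0.273% (difference 0.30 points, -0.04 to 1.07). Besides elt-3 these were egl-18, a GATA factor of the seam cells, with 22.3, egl-27, an MTA-type chromatin protein gene, with 20.6 in replicate 2, 11.8 in replicate 1 and 2 TGATAA, and nhr-23, a nuclear receptor needed for moulting, with 19.6 in replicate 2 and 12.6 in replicate 1. The last was vab-7, a homeobox gene, with 18.6. Junction, attachment, matrix and moulting genes were at the background, with 8 regions, 0.921% against 0.887%. The most elements were in the intron region of mua-3, which encodes a transmembrane protein of the epidermal muscle attachments, with 4 TGATAA and signals of 23.7 in replicate 2 and 7.86 in replicate 1. The lrp-1 region, in the gene of a megalin-type receptor needed for moulting, had 21.5 in replicate 2 and 9.56 in replicate 1, and the mlt-11 region, in a protease inhibitor gene of moulting, had 19.5 and none in replicate 1.

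**Figure D5:**
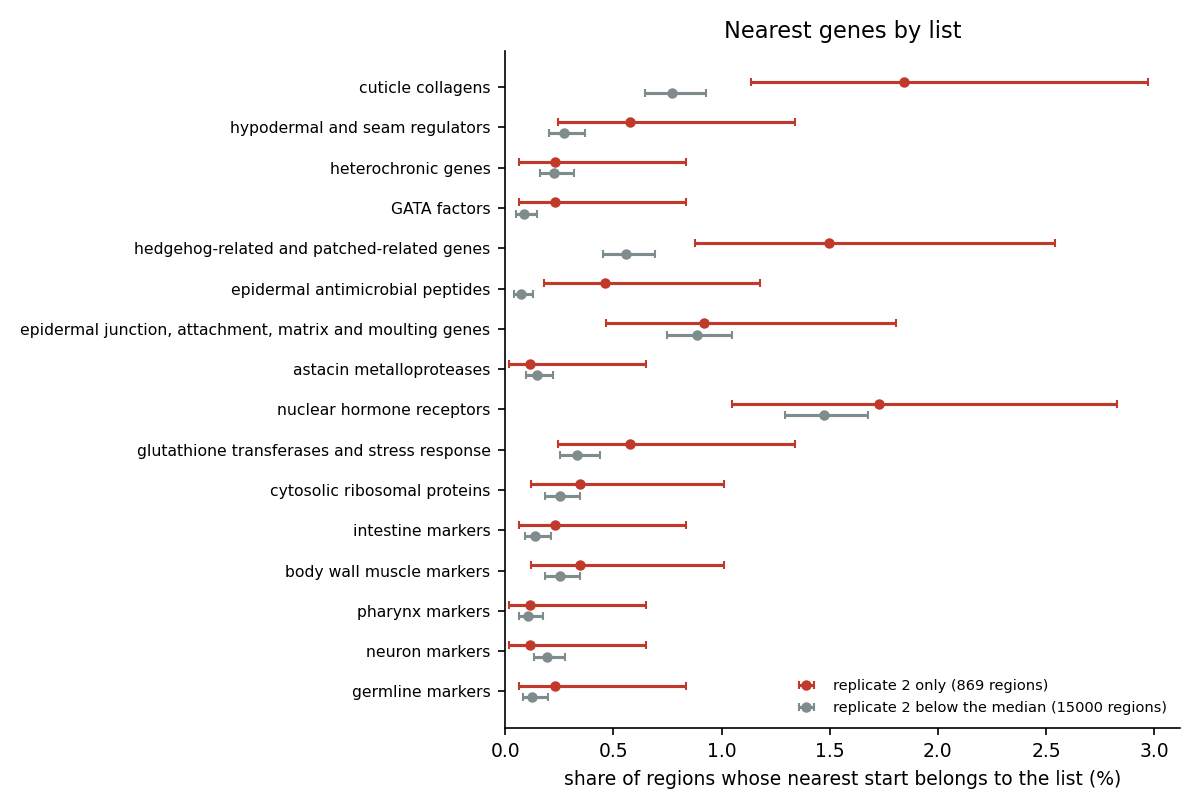
Share of regions whose nearest protein-coding start belongs to each of 16 gene lists, for the 869 replicate 2-only regions and the 15000 low regions, with 95% Wilson intervals. The intervals separate for hedgehog-related and patched-related genes, cuticle collagens and antimicrobial peptides, and overlap for the other 13 lists.

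For the other gene lists, 5 of them markers of other tissues, the interval of the difference from the low regions included 0. Nuclear hormone receptors had 15 regions, or 1.73%, against 1.47% (difference 0.25 points, -0.46 to 1.37), led by nhr-95 with 24.5. Glutathione transferases and stress genes had 5, including daf-16, the FOXO factor of the insulin pathway, with 22.9 and no TGATAA. Cytosolic ribosomal proteins had 3, body wall muscle markers 3, and heterochronic genes, intestine markers and germline markers 2 each. Among the intestine markers was act-5, the actin of intestinal microvilli, whose region 176 bp upstream of the start had 19.8 in replicate 2, 14.3 in replicate 1 and 2 TGATAA. Pharynx markers, neuron markers and astacin metalloproteases had 1 each.

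Small RNA genes differed from the low regions by a margin whose interval included 0 in some settings and not in others. A tRNA, rRNA, snRNA or snoRNA gene lay within 200 bp of the summit in 10 of the 869 regions, or 1.15%, against 99 of the 15000 low regions, 0.66% (difference 0.49 points, -0.05 to 1.45). Over 14 alternative settings that ranked replicate 2 the difference ran from 0.05 to 0.94 points, and its interval lay above 0 in 5 of them. The replicate 1-only regions exceeded replicate 1's own low regions by 0.74 points (0.14 to 1.75). In the regions high in both it was 6 of 131, or 4.58% (2.12 to 9.63). The replicate 2-only share minus that of the regions high in both was -3.43 points (-8.51 to -0.79).

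The elt-3 locus itself held several regions, and no density over the whole list is given beside these counts. The gene spans chrX:13934874-13941216, and 14 of the replicate 2 list's regions had a summit within 5000 bp of it and 33 within 20000 bp, 5 of which were replicate 2-only. The highest, in the intron shown above, lay 560 bp from the nearest of replicate 1's 3000 highest summits. The transgene carries elt-3, so signal from the native locus and from transgene copies cannot be told apart. At unc-119, the gene mutated in the strain, 3 regions lay within 5000 bp, and the highest of these ranked 22278 with a signal of 8.16. Within 20000 bp of unc-119 there were 15 regions, of which 1 was replicate 2-only. Without the 20000 bp around elt-3, the TGATAA difference for ranks 1 to 100 was 20.1 points.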

How the data were processed

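ChIP-seq regions of 2 biological replicates in 1 group were analysed. The authors deposited lists of 30000 regions per replicate and for both pooled, 370 bp wide in replicate 2 and 356 bp in replicate 1, described as peaks with background. They also deposited the regions kept by IDR. The deposited signal value is the caller's score against 1 control alignment, and the deposited q-value is given as −log10. The peak caller, the aligner and the IDR limit are not stated: not given in the sources used here. Library depth is unknown.

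Here, ce11 lists were ranked by signal, and annotated with Ensembl release 115 genes and the RefSeq WBcel235 genome. GATA elements were counted within 100 bp of summits. Shares have 95% Wilson intervals and differences Newcombe intervals. These cover counting only, and no p-value was computed, because 1 group leaves nothing to test over samples. By rule, the text names the gene with the closest protein-coding start to the 25 highest regions, to the 10 highest with TGATAA and to up to 4 per gene list, besides elt-3, unc-119 and the regions beside each threshold. The regions of genes with several members, and inx-13, lrp-2, wrt-6, rol-8, col-19 and vab-7, were chosen after their values were seen. The regions and the 16 gene lists were chosen with earlier results of these data known. Set construction was tested on simulated data. Alternatives changed the number of regions, distances, motif, window, background, build and replicate. The software was matplotlib 3.10.9, scipy 1.17.1, pandas 2.3.3 and numpy 2.4.6 under Python 3.11.15.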

Additional observations from a re-analysis of the deposited data

How the results depend on the processing

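Of 105 alternatives to the differences from the low regions and the number of regions, 96 gave values within the counting interval given above, or counts within 1.5 times. Over all regions the TGATAA difference was 4.83 points (2.28 to 7.64) with the low regions weighted to GC content. Its interval included 0 in 7 of 18 settings, where it was 1.11 points with 4 GATA sequences, 0.86 with 6, 1.37 with the 2000 highest regions, 1.53 in the whole region, 2.62 with 1 region per 1 kb, 2.39 without replicate 1 and 0.58 (-2.41 to 3.97) when every replicate 1 region was used to remove regions. The small RNA gene difference had an interval above 0 in 5 of 14 settings, at 0.75 points with summits within 50 bp, 0.62 when the 1000 highest of replicate 1 removed regions, 0.71 when all did, 0.59 against the lowest-ranked 25% of the list and 0.94 without replicate 1. The promoter difference ranged from -1.80 to 1.62 points and the X chromosome difference from -1.12 to 1.42 points, on both sides of 0. With the 500 highest regions of replicate 2 in place of 1000, 423 regions remained, the TGATAA difference over all of them was 6.16 points and the hypodermal difference 4.53 points. With the 2000 highest, 1792 regions remained. The TGATAA difference with replicate 1 ranked in place of replicate 2 was -0.63 points (-3.01 to 2.02) overall. At ranks 1 to 100 of replicate 1 it was -4.98 points (-10.6 to 4.30). Both values lay on the other side of 0, and both intervals included 0. The hypodermal difference with replicate 1 ranked was 1.17 points. When every replicate 1 region was used to remove regions, the hypodermal difference was 1.20 points (-0.09 to 3.08). When the gene's start had to lie within the promoter window, it was 0.56 points. The cause was not tested for any of these. For ranks 1 to 100, the TGATAA difference ranged from 14.1 to 25.97 points over the 16 alternatives that ranked replicate 2. Without replicate 1, which leaves all 1000 regions, it was 20.3 points. No value without replicate 2 could be computed, because the rule ranks that replicate. For ranks 1 to 100 all alternatives, for the hypodermal and small RNA gene differences the ranking by replicate 1, the number of regions without replicate 1, and the settings without chromosome I were chosen after seeing the data. Unknown depth limits every statement about regions missing from replicate 1, and 77 regions limit those about ranks 1 to 100.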

Other observations

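Some genes had several replicate 2-only regions. Of the 802 nearest genes, 58 had 2 or more and 5 had 3 or more. These 5 were chosen after their values were seen. At din-1, 5 regions had signals of 27.5, 20.5, 17.96, 25.9 and 18.4 along the gene. The first 2, on both sides of an annotated start, each held 1 TGATAA and had a replicate 1 counterpart, while the other 3 had neither. At vhp-1, which encodes a MAP kinase phosphatase, 5 regions had signals of 17.8, 17.8, 19.1, 20.95 and 17.4, and the one with 20.95, in an intron, was the only one of the 5 with TGATAA or with a replicate 1 region. At meg-1, a germ-plasm protein gene beside elt-3, 3 regions were among the 5 replicate 2-only ones within 20000 bp of elt-3. They had 24.04, 17.6 and 24.2, with no TGATAA and no replicate 1 region. At nhr-76, 3 regions had 17.7, 17.6 and 17.8, again with neither. At svh-5, 3 regions had 21.6, 18.3 and 19.3, and the first held 2 TGATAA.

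Spacing over all replicate 2-only regions was counted with no background set beside it, so nothing is read from these counts. Neighbouring summits lay within 1 kb of each other in 11 pairs and within 5 kb in 82, and the median gap between neighbours was 64590 bp.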
